A study of Equus asinus with 2 samples.

Results

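NPHS1, PODXL, PTPRO, SYNPO, PLA2R1 and CLIC5 are genes known from the podocyte, the cell that wraps the capillaries of the kidney filter, and from its slit diaphragm and foot processes. The rows bearing these 6 symbols were taken from a table of 38517 features in 2 single-cell RNA libraries of fetal donkey (Equus asinus). One library came from a fetus or fetuses at 4 weeks of gestation, sampled as mesonephros, the transient embryonic kidney, together with the gonad beside it. The other came from tissue labelled as ovary at 8 weeks of gestation. Both tissues were dissociated with collagenase IV and DNase I, and no genotype, strain, treatment, sex or number of animals is given in the labels. The labels name germ cells as the cell type of both libraries, yet cells meeting the germ cell gate described below were 7.71% and 7.77% of them. Each stage is 1 library, so stage, tissue and library cannot be told apart, there is no replicate check, and no p-value is given.

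Podocytes extend interlocking foot processes over the capillary wall, and the slit diaphragm bridges the gaps between them. Nephrin, encoded by NPHS1, is a core part of that junction, while an actin skeleton holds the processes in shape. The mesonephros carries glomeruli with podocytes before the permanent kidney takes over, and it lies against the early gonad.

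The unit is the UMI, a barcode that counts 1 captured RNA molecule, and levels are given as CPM, a gene's UMIs in a set of cells scaled to a total of 1000000 UMIs in that set. The libraries held 8912 and 14590 cells with at least 200 genes detected, with a median of 7775.5 and 5880 UMIs a cell and 38 barcodes in common. Cells were assigned by marker gates that use none of the 6 genes, and a cell meeting several gates (18.6% at 4 weeks and 24.7% at 8 weeks) was left out of all of them. The podocyte gate asked for podocyte marker genes other than the 6. The Sertoli-like gate (AMH and SOX9) held 440 cells of the library labelled ovary. Intervals in parentheses are 95% intervals that cover counting error only, exact Poisson for CPM, exact conditional binomial for ratios and Clopper-Pearson for shares. Counts were not scaled to gene length, so levels are compared between cells for 1 gene and not between genes.

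At 4 weeks 82 cells met the podocyte gate, 0.92% of the library (0.732 to 1.14), and 40 of them met no other gate. This is below the minimum of 50 cells set for a gate, so values for all 82 cells stand beside those of the 40. Of the 42 cells that met another gate, 33 met the muscle or pericyte gate, and 30 of these 33 carried RGS5, a pericyte gene. At 8 weeks 1 cell of 14590 met the podocyte gate. It held 24044 UMIs and none of the 6 genes, and it met 2 other gates. The number of podocytes and the tissue sampled cannot be told apart between the libraries.

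All 6 genes had their highest level among the gates of the 4-week library in the podocyte gate. Compared with the 7213 cells outside it that met at most 1 gate, 6 of 6 were at least 2-fold higher, from 13.3-fold for SYNPO to 344-fold for PTPRO. By the same rule 32.2% of the 23354 genes with at least 10 UMIs were higher and 18.5% lower, but 4960 of those 7518 genes had no UMI in the 40 cells and passed through the added 0.5 UMI. With at least 5 UMIs in the gate also required, 5% of the genes were higher. The median log2 ratio was 5.64 over the 6 genes and 0.21 over all genes tested. For all 82 cells against 8830, the count was again 6 of 6 where 15.2% of all genes were higher (4.44% with at least 5 UMIs in the gate), and the medians were 5.08 and -0.12.

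NPHS1 encodes nephrin, the adhesion protein whose outer domains bridge the slit. Its level was 2204 CPM (2041 to 2377) in the 40 cells and 11.3 CPM (10.6 to 12.1) in the other cells, a ratio of 194.5 (175.5 to 215.5). In single cells it ran from 0 to 4469 CPM with a median of 1677, and 2 of 40 cells had no UMI. Thus nearly every cell of the gate carried nephrin RNA, and the cells at 0 were few. Over all 82 cells the level was 1035 CPM and the ratio 81.6 (76.2 to 87.4). Those 82 cells held 1852 of the 3380 NPHS1 UMIs of the library, or 54.8% (53.1 to 56.5).

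PTPRO is a receptor-type tyrosine phosphatase of the foot process membrane. It stood at 4989 CPM (4742 to 5246) against 14.5 CPM in the other cells, a ratio of 344 (318 to 373), and at 2700.1 CPM over the 82 cells. Single cells of the gate ran from 0 to 16271 CPM with a median of 3875, and 1 of 40 had none. The 82 cells held 76.3% (75.2 to 77.3) of its 6335 UMIs, so most of the PTPRO RNA of the library lay in under 1% of its cells.

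PODXL encodes podocalyxin, the charged sialomucin that coats foot processes and also blood vessel walls and body cavity linings. It stood at 1998 CPM (1843 to 2163) in the 40 cells and 1182 CPM in the 82. Single cells of the gate ran from 0 to 5894 CPM with a median of 1913. The other cells were at 70.0 CPM (68.1 to 71.9), a ratio of 28.6 (26.2 to 31.1). The 82 cells held 21.9% (21.1 to 22.8) of its 9632 UMIs and the vessel gate 31.8% (30.9 to 32.7), so vessel cells held more of it than podocytes did.

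CLIC5, a protein linking the membrane to the actin skeleton through ezrin, stood at 976 CPM (869 to 1093) in the 40 cells and 642 CPM in the 82. The ratio over other cells was 87.3 (76.2 to 99.8). Single cells of the gate ran from 0 to 2292 CPM with a median of 678, and 8 of 40 had none. The 82 cells held 47.1% (45.1 to 49.2) of its 2435 UMIs.

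The remaining pair was found at few UMIs a cell. SYNPO, the actin-binding synaptopodin of mature foot processes, had 32 UMIs in the 40 cells, 104 CPM (71.5 to 147), and 22 of the cells had none. Its ratio over other cells was 13.3 (9.04 to 19.0). PLA2R1, the phospholipase A2 receptor of the podocyte surface, had 56 UMIs, 183 CPM (138 to 237), and 21 cells had none. Its ratio was 16.3 (12.2 to 21.3). Over all 82 cells SYNPO stood at 84.4 CPM and PLA2R1 at 80.5 CPM, so the PLA2R1 level depended on which cells were counted. The 82 cells held 12.5% (10.7 to 14.5) of the SYNPO UMIs and 9.94% (8.45 to 11.6) of the PLA2R1 UMIs of the library.

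**Figure D1:**
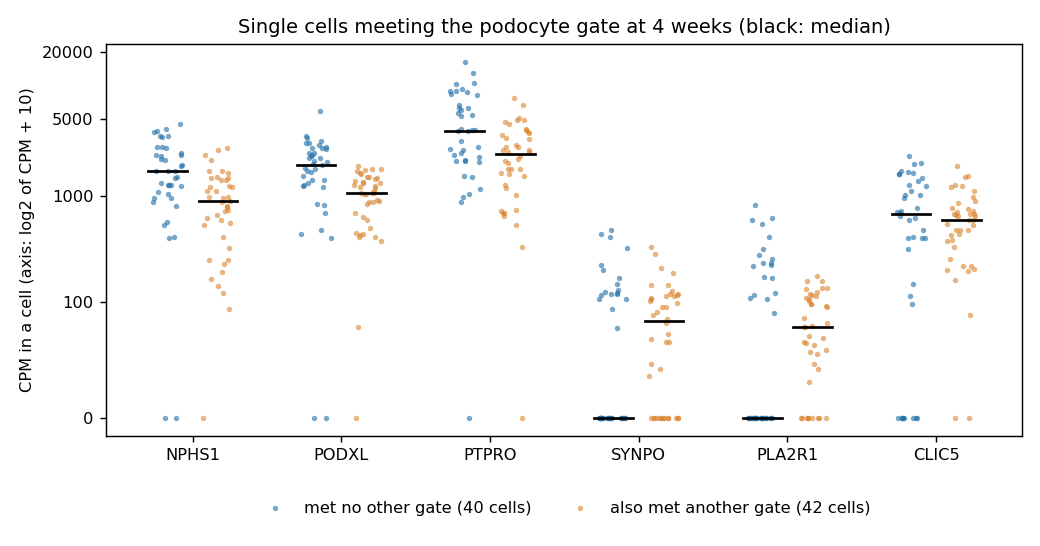
Level of each of the 6 genes in the single cells that met the podocyte gate at 4 weeks; the vertical axis is CPM in a cell, drawn as log2 of CPM plus 10, points are cells and black lines medians. The medians of NPHS1, PODXL and PTPRO were 1677, 1913 and 3875 CPM in the 40 cells of no other gate (blue), while SYNPO and PLA2R1 were at 0 in 22 and 21 of them.

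Markers of other cell types were looked for in the 40 cells. These cells had met no other gate, so low levels of the gate markers below were partly set in advance. The 4 vessel markers CDH5, PECAM1, TEK and TIE1 were at 0, as was STAR of steroid-making cells, and 4 of 5 macrophage markers were at 0. The summed level of the proximal tubule markers was 32.7 CPM against 2300.2 CPM in their own gate, and each was detected. The muscle or pericyte markers summed to 242 CPM against 410 CPM in their own gate, with MYH11 and CSPG4 at 0, and RGS5 alone stood at 202 CPM (155 to 260). The coelomic epithelium markers summed to 274 CPM against 141 CPM in their own gate of 6 cells, and 3 of the 4 were at 0, so the whole sum was MSLN. The Sertoli-like markers AMH and SOX9 summed to 81.6 CPM against 3899 CPM in their own gate, were found in 16 of the 40 cells and reached 3839 CPM in 1 cell. The germ, distal tubule, macrophage, erythroid and stroma markers summed to between 3.27 and 26.1 CPM. Over all 82 cells the vessel sum was 217 CPM, the muscle or pericyte sum 684 CPM and the Sertoli-like sum 73.2 CPM. The part of these RNAs in the levels of the 6 genes was not tested.

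The genes were often found in the same cell. With all UMIs used, 33 of the 40 cells, 82.5% (67.2 to 92.7), carried at least 4 of the 6 genes and 12 carried all 6. Since detection follows depth, each cell was thinned to 1000 UMIs, which left out 2 of the 40. At that depth 19 of 38 cells, 50% (33.4 to 66.6), carried 4 or more, and none carried all 6. PTPRO was then seen in 97.4% of the cells, NPHS1 in 84.2%, PODXL in 76.3%, CLIC5 in 52.6%, PLA2R1 in 15.8% and SYNPO in 2.63%, and these shares follow the UMIs each gene yields. Over all cells meeting the gate, 73 of 82 carried 4 or more without thinning and 23 of 80, 28.75% (19.2 to 39.95), after it. With all UMIs, SYNPO and PLA2R1 met in 12 of the 40 cells, 30%, where the product of their shares is 21.4%. After thinning they met in 0 of 38 cells, where the product is 0.416%. NPHS1 and PTPRO, with all UMIs, met in 92.5% of the 40 cells, where the product is 92.6%.

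Co-detection outside the podocyte gate was rare at equal depth. With all UMIs, 48 of 446 muscle or pericyte cells (10.8%), 12 of 1278 vessel cells (0.939%) and 1 cell each of the germ, proximal tubule and erythroid gates carried 4 or more of the genes at 4 weeks. After thinning, 4 or more genes were found in 2 of 445 muscle or pericyte cells (0.449%) and in 2 of 1986 cells of no gate (0.101%). In the vessel, stroma, Sertoli-like, germ, tubule, macrophage, steroidogenic and erythroid gates the count was 0 at 4 weeks, which allows up to 0.236% of the 1270 vessel cells. At 8 weeks it was 0 in each gate counted and in cells of no gate, for example 0 of 3206 stroma cells, which allows up to 0.0936%. Without thinning, 1 of 338 vessel cells at 8 weeks carried 4 of the genes. For single genes, erythroid cells are set beside the podocyte gate, and whether their counts are background was not tested. With all UMIs NPHS1 was found in 2, SYNPO in 4 and CLIC5 in 7 of 345 erythroid cells. PTPRO was found in 9, PODXL in 14 and PLA2R1 in 30 of them, at a median of 6146 UMIs a cell. In the 40 podocyte gate cells, at 7272 UMIs, the same genes were found in 38, 18, 32, 39, 38 and 19 cells.

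**Figure D2:**
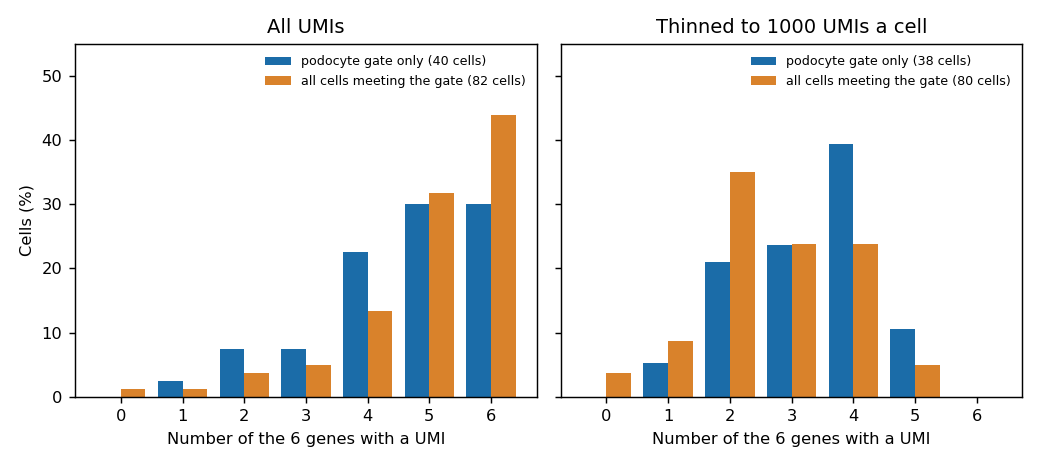
Share of cells (%) by how many of the 6 genes had at least 1 UMI, for the cells meeting the podocyte gate alone (blue) and for all cells meeting it (orange), with all UMIs (left) and after thinning each cell to 1000 UMIs (right). With all UMIs, 12 of 40 cells carried all 6 genes; after thinning none did, and 19 of 38 carried at least 4.

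Among the 40 cells, the CPM of NPHS1 and CLIC5 ranked together most closely of the 15 pairs of the 6 genes (Spearman's rho 0.68), followed by PODXL with CLIC5 (0.56) and NPHS1 with PODXL (0.55). These are descriptions over 40 cells of 1 library that share its depth and preparation. CLIC5 ranked with the UMIs per cell at 0.51. RGS5 ranked the other way, from rho -0.59 with PTPRO and -0.38 with NPHS1 to -0.06 with PLA2R1. It had no UMI in 27 of the 40 cells, from which cells of the muscle or pericyte gate were left out. RGS5 was also among the 10 genes that led cluster 27 of the 4-week library, where 75 of 98 cells met the podocyte gate. PTPRO and PODXL had a rho of 0.21 in the 40 cells and 0.42 in the 82.

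The genes were also high in podocyte gate cells that met a further gate. The 20 cells that met the podocyte and the muscle or pericyte gate and no other had NPHS1 at 1172 CPM, PODXL at 1195, PTPRO at 3427 and CLIC5 at 785 CPM, with RGS5 at 831 CPM (751 to 916). In these cells the 4 genes lay below the 40 cells of the podocyte gate alone but far above other cells.

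Podocyte genes of other roles were taken from a list of 52, of which 49 were not used by the gate. Of these 36 were at least 2-fold higher in the 40 cells than in other cells, 6 lower and 7 neither, where 32.2% of all genes were higher and 18.5% lower. The median log2 ratio was 2.35 over the 49 genes and 0.21 over all genes. Over the 82 cells the counts were 34, 5 and 10, where 15.2% of all genes were higher and 18.5% lower. The list was chosen with earlier results of these data known, so its count is a description.

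Of the other slit diaphragm genes, 6 of 9 were higher and 2 lower, where 32.2% and 18.5% of all genes were, so the lower share was near that of all genes. The scaffold protein MAGI2 stood at 12411 CPM, 73.0-fold above other cells (70.3 to 75.7), the nephrin-like KIRREL2 at 58.8 CPM, 23.2-fold (13.4 to 37.7), and the polarity protein CRB2 at 163 CPM, 15.2-fold (11.2 to 20.2). KIRREL3 and IGSF5 were the lower pair. Both had no UMI in the 40 cells, which allows up to 9.8 CPM, and stood at 37.3 and 16.6 CPM in other cells. Over the 82 cells their ratios were 0.357 (0.218 to 0.553) and 0.29 (0.132 to 0.551). KIRREL2 is the neighbour of NPHS1 in the RefSeq gene table, and whether the counting used strand is not given in the sources used here.

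Genes of the actin skeleton and foot process were higher in 8 of 14 and lower in 3, where 32.2% and 18.5% of all genes were, so here too the lower share was near that of all genes. Dendrin, DDN, stood at 317 CPM, 229-fold above other cells (172 to 305), the intermediate filament nestin, NES, at 820 CPM, 10.4-fold (9.16 to 11.9), and the motor protein MYO1E at 771 CPM, 7.56-fold (6.61 to 8.60). The calcium channel gene TRPC6 had no UMI in the gate and 12.5 CPM elsewhere, and 1 UMI in the 82 cells, a ratio of 0.0381 (0.000964 to 0.213). The 2 others that were lower, the cytokinesis gene ANLN and the adaptor gene NCK1, had ratios of 0.133 (0.00337 to 0.742) and 0.473 (0.244 to 0.827). NCK1 was not past 2-fold over the 82 cells, at 0.773. Of the basement membrane and adhesion genes 8 of 10 were higher and none lower, where 32.2% and 18.5% of all genes were. The integrin ITGA3 was 28.0-fold higher (21.8 to 35.6), and the glomerular collagen chains COL4A3 and COL4A4 were 19.8-fold (16.0 to 24.2) and 12.5-fold (8.87 to 17.05) higher. The proteoglycan agrin, AGRN, was nearer to other cells at 1.49-fold (1.05 to 2.04).

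The 6 transcription factors that the gate did not use were all higher, where 32.2% of all genes were. FOXD1 led at 61.4-fold (47.1 to 79.3), then LMX1B at 31.0-fold (22.1 to 42.5) and TCF21 at 10.8-fold (8.07 to 14.1). FOXC1 was the least, at 3.28-fold (1.97 to 5.14). Of the surface and secreted genes 8 of 10 were higher and 1 lower, where 32.2% and 18.5% of all genes were. The semaphorin SEMA3G was 76.4-fold higher (57.6 to 100.1), the endothelial growth factor VEGFA 24.2-fold (21.5 to 27.2) and THSD7A 22.6-fold (20.9 to 24.5). The peptidase MME stood at 9.8 CPM, from 3 UMIs, against 31.7 CPM, a ratio of 0.309 (0.0637 to 0.904).

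**Figure D3:**
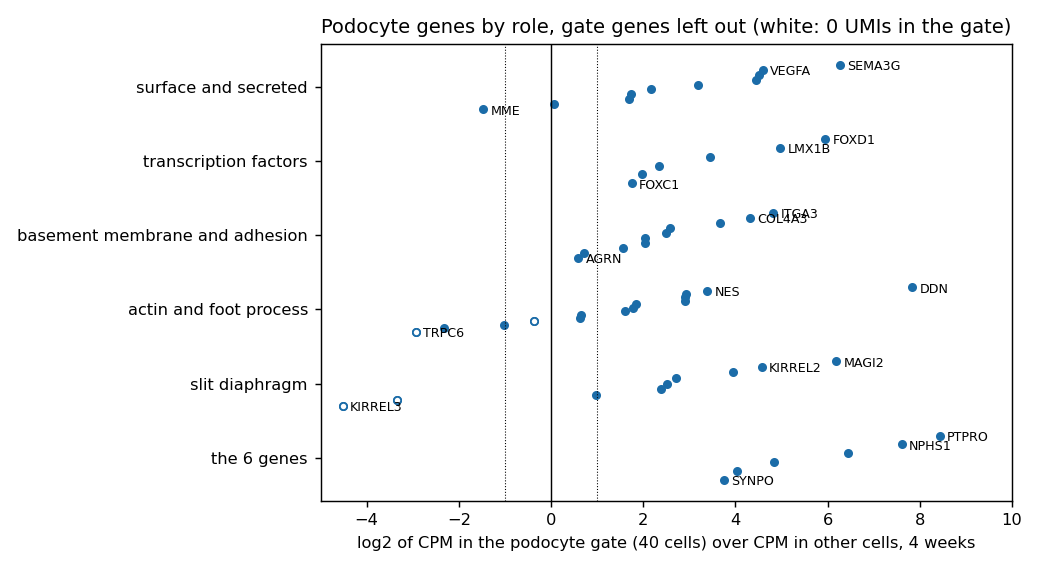
Log2 ratio of CPM in the 40 cells of the podocyte gate over other cells of the 4-week library for the 6 genes and, by role, for the other podocyte genes of the list; each point is a gene, white points had 0 UMIs in the gate, and dotted lines mark a 2-fold difference. The 6 genes lay between 3.76 (SYNPO) and 8.43 (PTPRO), and 36 of the 49 other genes lay above the 2-fold line.

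Outside the podocyte gate the genes parted. The gates leave out cells of several gates, which also held part of this RNA. Apart from podocyte gate cells, they were 18.1% of the cells at 4 weeks and 24.7% at 8 weeks. They held from 6.87% (PTPRO) to 39.5% (SYNPO) of a gene's UMIs at 4 weeks. At 8 weeks they held from 45.5% (CLIC5) to 68.3% (SYNPO). Their share of the UMIs of all genes was not computed, so these shares are not read as a trait of the 6 genes. The plot of levels by gate sets them side by side, and the order below is over gates with at least 50 cells. For PODXL the vessel gate came next at 4 weeks, at 174 CPM (168 to 181), then the muscle or pericyte gate at 95.6, the Sertoli-like gate at 42.6 (37.7 to 47.9) and the proximal tubule gate at 18.3 CPM. Each differed from the next beyond its counting error. Germ cells at 10.9 CPM, stroma at 7.94 and erythroid cells at 7.23 CPM did not. PODXL was detected in 861 of 1278 vessel cells, 67.4%, at a median of 7574.5 UMIs a cell, against 14 of 345 erythroid cells, 4.06%, at 6146. At 8 weeks the vessel gate was highest at 222 CPM (206 to 238), then the Sertoli-like gate at 45.2, germ cells at 14.4 and stroma at 6.36 CPM.

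PODXL was also high in 2 small sets that carried markers of the body cavity lining. The coelomic epithelium gate at 8 weeks held only 8 cells, with 48 PODXL UMIs, 419 CPM (309 to 555). Cluster 22 of the 8-week library, 73 cells led by SPINK2, PKHD1L1 and the mesothelial gene UPK3B, had PODXL at 334 CPM (306 to 363) and PTPRO at 32.7 CPM (24.5 to 42.8), with NPHS1 at 1 UMI. PODXL was among the 10 genes that led this cluster. Clusters 29 of week 4 and 21 of week 8, with STAB2 and the lymphatic factor PROX1 among their leading genes, had PODXL at 25.2 and 29.2 CPM.

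NPHS1 stood at 29.1 CPM (25.9 to 32.5) in the muscle or pericyte gate and 19.2 CPM (16.6 to 22.1) in the proximal tubule gate at 4 weeks, which differed from each other and from the rest. The Sertoli-like gate at 5.02, vessel at 4.04, macrophage at 3.41 and stroma at 3.04 CPM did not differ from their neighbours in the order. The proximal tubule value came from few cells, 192 UMIs in 58 of 931. Cluster 6 of the 4-week library, 450 cells led by PLD1, DCDC2 and CLDN1, had NPHS1 at 48.3 CPM (44.5 to 52.2) in 111 of its cells and up to 64 UMIs in 1 cell. PTPRO there was only 1.89 CPM, so NPHS1 was found there with few PTPRO UMIs. At 8 weeks NPHS1 was highest in macrophages at 3.47 CPM (1.9 to 5.83), from 14 UMIs in 9 of 754 cells, and at most 1.15 CPM in the other gates.

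PTPRO followed the podocyte gate more closely. The muscle or pericyte gate held 64.6 CPM (59.8 to 69.6) at 4 weeks and stroma 7.43 CPM (5.40 to 9.97), and the gates after them, from germ cells at 3.49 CPM downwards, did not differ from their neighbours. At 8 weeks the muscle or pericyte gate stood at 5.77 CPM (3.90 to 8.24), above stroma at 2.06 CPM (1.49 to 2.76).

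In the muscle or pericyte gate at 4 weeks, most of the NPHS1, PTPRO, PODXL and CLIC5 RNA lay in cells that also carried FOXC2 and LHX1. The other 358 of its 446 cells held 75 of the 306 NPHS1 UMIs, 73 of the 680 PTPRO UMIs, 180 of the 1006 PODXL UMIs and 32 of the 322 CLIC5 UMIs. Their levels of NPHS1, PTPRO, PODXL and CLIC5 were 11.6, 11.3, 27.8 and 4.94 CPM. These 358 cells also held 47 of the 79 SYNPO UMIs and 86 of the 166 PLA2R1 UMIs. They held 6478533 of the gate's 10526844 UMIs of all genes, at a median of 10023.5 a cell against 12620.5 in the whole gate. Detection follows depth, so this split also sorts cells by depth. Cluster 9 of that library, 404 cells led by AMOT, LHX1 and PAX2, had PODXL at 117 CPM (111 to 123), PTPRO at 74.7, CLIC5 at 39.3 and NPHS1 at 36.1 CPM, with only 2 cells of the podocyte gate.

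CLIC5 was next highest after the podocyte gate in the muscle or pericyte gate and in germ cells at 4 weeks. It stood at 27.9 CPM (23.4 to 33.0) in germ cells, in 90 of 380 cells at a median of 10732 UMIs (erythroid cells 7 of 345 at 6146), and did not differ from the muscle or pericyte gate at 30.6 CPM. The vessel gate followed at 8.2 CPM (6.91 to 9.65) and the proximal tubule gate at 5.3 CPM, and the later gates did not differ from their neighbours. At 8 weeks germ cells were highest at 12.7 CPM (10.2 to 15.5) and held 93 of the 279 UMIs of the library, ahead of the vessel gate at 3.38 CPM. Cluster 18 of week 4, 203 cells led by RGS7, EHD3 and GPIHBP1 with the endothelial receptor KDR, had CLIC5 at 80.0 CPM (64.4 to 98.2) in 58 cells. One cell of that cluster met the podocyte gate.

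Among the gates other than the podocyte gate SYNPO was highest in vessels and stroma at 4 weeks. Cluster 26 of week 4, 106 cells with ACTA2 and RGS5 among its leading genes, had SYNPO at 26.7 CPM (17.6 to 38.8). PLA2R1 stood at like levels in several gates, erythroid cells included. SYNPO stood at 15.9 CPM (14.1 to 17.9) in vessels and 15.2 CPM (12.2 to 18.7) in stroma at 4 weeks, which did not differ, and at 7.5 CPM in the muscle or pericyte gate. At 8 weeks it was 10.97 CPM in the muscle or pericyte gate, 10.8 in vessels and 8.79 in stroma, with no difference between neighbours, and lower in the steroidogenic gate at 4.68 and the Sertoli-like gate at 4.67 CPM. PLA2R1 stood at 17.2 CPM in stroma, 16.5 in vessels, 15.8 in muscle or pericytes and 13.7 in erythroid cells at 4 weeks, with no difference between neighbours, and at 0.608 CPM in the Sertoli-like gate. After thinning to 1000 UMIs it was found in 1.02% of vessel, 1.39% of stroma, 2.02% of muscle or pericyte and 1.47% (0.478 to 3.39) of erythroid cells. The muscle or pericyte share (0.929 to 3.80) lay above the erythroid share and the vessel and stroma shares below it, all with overlapping intervals. These counts thus do not settle an order between these 3 gates and erythroid cells at equal depth. Erythroid cells were not the floor for this gene, since macrophages held 0 UMIs of it, which allows up to 3.41 CPM. Whether the levels in these gates are background was not tested. Cluster 22 of week 4, 159 cells led by POSTN, had PLA2R1 at 38.2 CPM (29.2 to 49.0) and SYNPO at 28.8 CPM (21.1 to 38.4). At 8 weeks PLA2R1 was highest in vessels, 18.4 CPM (14.1 to 23.7), 2.11 times stroma (1.55 to 2.84).

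**Figure D4:**
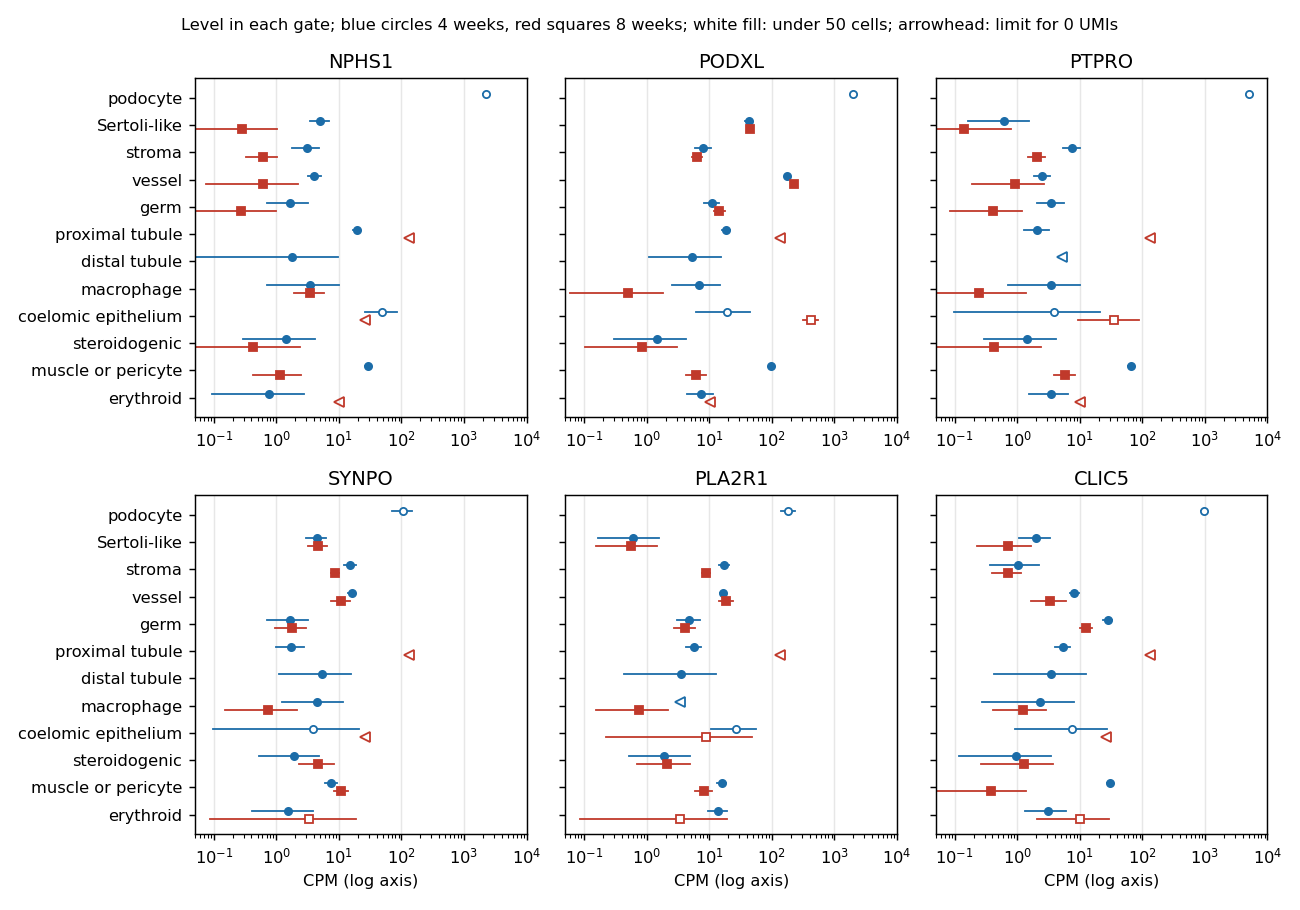
Level of each gene in each gate in CPM on a log axis, at 4 weeks (blue circles) and 8 weeks (red squares), with 95% Poisson intervals cut at the left edge of the axis; white symbols are gates of under 50 cells and arrowheads give the limit for 0 UMIs. The podocyte gate was highest for each gene. At 4 weeks PODXL was next in vessels at 174 CPM. At 8 weeks it stood at 419 CPM in the coelomic epithelium gate of 8 cells and 222 CPM in vessels. CLIC5 stood at 27.9 and 12.7 CPM in germ cells at 4 and 8 weeks.

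The 2 stages were compared within gates that held at least 50 cells in both libraries. Cells of several gates, with the shares of UMIs given above, were left out. In the vessel gate 3 of 6 genes differed by at least 2-fold, where 23.2% of all genes did, and all 3 were lower at 8 weeks (13.9% of all genes were lower and 9.28% higher). NPHS1 was 4.04 CPM at 4 weeks and 0.615 CPM at 8 weeks, a ratio of 8 over 4 weeks of 0.152 (0.0181 to 0.57), from 71 and 2 UMIs. CLIC5 was 8.2 and 3.38 CPM, a ratio of 0.412 (0.201 to 0.760), and PTPRO 2.5 and 0.922 CPM, from 44 and 3 UMIs, with an interval that includes 1 (0.0731 to 1.15). PTPRO no longer differed by 2-fold, at a log2 ratio of -0.88, under a looser podocyte gate.

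PODXL in vessels was 1.27 times its 4-week level at 8 weeks (1.17 to 1.38), which is under 2-fold. With cells of several gates kept, the direction turned, to a log2 ratio of -0.30. PLA2R1 stood at 16.5 and 18.4 CPM, a ratio of 1.12 (0.834 to 1.48), and SYNPO at 15.9 and 10.8 CPM, a ratio of 0.675 (0.461 to 0.961).

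In stroma 2 of 6 genes differed by at least 2-fold, where 16.3% of all genes did (9.54% lower, 6.73% higher). NPHS1 stood at 3.04 and 0.608 CPM, a ratio of 0.2 (0.0901 to 0.432), and PTPRO at 7.43 and 2.06 CPM, a ratio of 0.277 (0.178 to 0.43). PLA2R1 stood at 17.2 and 8.74 CPM, just inside the limit at a log2 ratio of -0.98, and SYNPO at 15.2 and 8.79 CPM, a ratio of 0.578 (0.447 to 0.752). With cells of several gates kept, PODXL and CLIC5 in stroma were also lower, at log2 ratios of -1.49 and -3.46. In the Sertoli-like gate 4 of the 6 genes had at least 10 UMIs and 2 were lower at 8 weeks, where 19.3% of all genes differed (12.4% lower, 6.99% higher). NPHS1 stood at 5.02 and 0.283 CPM, from 33 and 2 UMIs, a ratio of 0.0565 (0.00656 to 0.221). CLIC5 stood at 1.98 and 0.708 CPM with an interval that includes 1 (0.1 to 1.07), and PODXL, at 42.6 and 45.2 CPM, had a ratio of 1.06 (0.901 to 1.25).

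In germ cells 3 of 6 genes were lower, where 20.5% of all genes differed (9.25% lower, 11.2% higher). CLIC5 stood at 27.9 and 12.7 CPM, a ratio of 0.454 (0.345 to 0.595), which was under 2-fold, at a log2 ratio of -0.57, when each cell counted equally. PTPRO stood at 3.49 and 0.409 CPM, from 17 and 3 UMIs, a ratio of 0.117 (0.022 to 0.405), and NPHS1 at 1.64 and 0.272 CPM, from 8 and 2 UMIs, a ratio of 0.166 (0.0172 to 0.832). In the muscle or pericyte gate 4 of 6 were lower, where 31.8% of all genes differed (18.6% lower, 13.2% higher). NPHS1 stood at 29.1 and 1.15 CPM, PODXL at 95.6 and 6.16 CPM, PTPRO at 64.6 and 5.77 CPM and CLIC5 at 30.6 and 0.385 CPM. Without the FOXC2 and LHX1 cells the 4-week levels were 11.6, 27.8, 11.3 and 4.94 CPM, each above the level of the unfiltered 8-week gate. Clusters 26 of week 4 and 14 of week 8 both had RGS5 and ACTA2 among their leading genes. NPHS1 stood there at 2.96 and 2.46 CPM and PODXL at 4.94 and 2.24 CPM. PTPRO stood at 10.9 and 6.03 CPM, and CLIC5 at 0.988 and 0.447 CPM, from 1 and 2 UMIs. In macrophages the 1 gene with enough UMIs, NPHS1, stood at 3.41 and 3.47 CPM, where 20.3% of all genes differed (12.1% lower, 8.2% higher). In the steroidogenic gate 1 of 1, SYNPO, was higher, from 4 and 11 UMIs, with an interval of the ratio from 0.727 to 10.6, where 15.9% of all genes differed (9.9% lower, 5.98% higher).

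NPHS1 was thus lower at 8 weeks in 5 of the 6 gates where it had at least 10 UMIs over both libraries. Cells meeting the podocyte gate numbered 82 and 1 in these libraries, and the part of their RNA in the differences was not tested. In the whole libraries NPHS1 stood at 27.6 and 0.78 CPM, PTPRO at 51.8 and 2.15 CPM, CLIC5 at 19.9 and 1.8 CPM and PODXL at 78.8 and 21.1 CPM, while SYNPO stood at 9.84 and 8.95 CPM and PLA2R1 at 11.8 and 7.1 CPM.

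**Figure D5:**
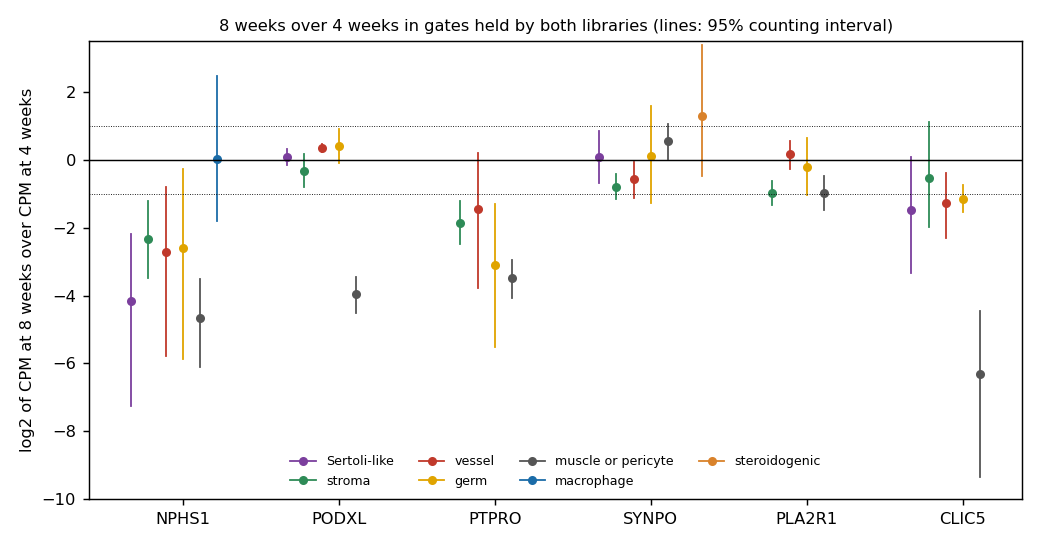
Log2 of the level at 8 weeks over that at 4 weeks for each gene in the gates held by both libraries; points are ratios of CPM, lines 95% counting intervals, colours gates, and dotted lines a 2-fold difference. NPHS1 lay below the lower line in 5 of 6 gates, and PODXL lay above 0 in vessels (ratio 1.27) and far below it in the muscle or pericyte gate.

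The genes most like each of the 6 were sought by Pearson's r of log2(CPM + 1) over the 18 levels of gates with at least 50 cells, and the podocyte gate, in either library, among 19677 genes. These are descriptions over 18 levels that share 2 libraries and their depth. For NPHS1 the nearest were LOC123289113 (0.953), LOC123276915 (0.948) and the transcription factor FOXD1 (0.947), and for PTPRO LOC123283577 (0.961), LOC123276915 (0.942) and LOC106824624 (0.940). For CLIC5 they were LOC106831772 (0.952), the peptidase ENPEP (0.899) and LMX1B (0.894). PODXL was nearest to LOC123287187 (0.912), the polarity gene VANGL1 and SEL1L3 (both 0.879). SYNPO was nearest to THSD7A (0.887), COLGALT2 (0.862) and GDA (0.852), and PLA2R1 to SEMA3G (0.870), FAM163A (0.869) and VANGL1 (0.865). Of these nearest genes, LOC123287187, LOC106831772 and GDA were lowest in the podocyte gate, at 3.27, 13.1 and 16.3 CPM. There 1 UMI is 3.27 CPM, so their level in that gate rests on few UMIs. Among the 6 themselves NPHS1 and PTPRO had r of 0.901, NPHS1 and CLIC5 0.827, and SYNPO and CLIC5 0.510.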

How the data were processed

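Droplet single-cell RNA libraries were made from dissociated fetal donkey tissue, per the labels' protocols with a DNBelab C series kit, while the barcodes have the form written for another chemistry. The deposited values are raw UMI counts, whole numbers for each feature in each barcode. The file headers give Cell Ranger 7.1.0 as the program by which the authors counted, whereas version 2.1.1 is named in the submitters' processing notes. Neither the genome build nor the annotation is named, and the use of strand or of intronic reads is not given in the sources used here, so no coordinates or sequences are printed. All 6 members were found by symbol, and 3 of the 52 list genes were matched by locus identifier through the RefSeq gene table (EquAss-T2T_v2).

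A barcode needed 200 detected genes, which removed 26 and 3. The totals were 122341903 and 155128130 UMIs. Cells were gated by markers. The marker genes of the podocyte gate are not reported here. The Sertoli-like gate asked for AMH at 10 or more UMIs and SOX9 at 1 or more, stroma for DCN at 3 or more and PDGFRA at 1 or more, steroidogenic cells for STAR at 5 or more, and the other gates for 3 or more UMIs over at least 2 markers. One erythroid marker had no row by symbol and was dropped. A gate was to be compared with 50 or more cells. The podocyte gate held 40 and was kept all the same, a departure from that plan, with all 82 cells that met it beside it. Doublets were not called; cells of several gates were left out, and removal of the highest 6% of scores from simulated doublets was tried.

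UMIs were summed per gate and library. A gene with at least 10 UMIs over both sides was compared as a log2 ratio with 0.5 UMI added, and called at 2-fold. A count of 0 was given the limit of 3 counts. Intervals cover counting error only. Neither cells nor genes were used as replicates, and no test was made. Clusters are Leiden clusters of each library without the 6 genes (resolution 1, 2000 genes, 30 components, 20 neighbours) and are named by number. The counting steps were tested on simulated data.

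Genes are named by a rule: the 6 members, for each role up to 3 genes of highest and 1 of lowest ratio among those with at least 10 UMIs, and the 3 genes of highest r per member among those with at least 50 UMIs. Other genes named, among them IGSF5, ANLN, NCK1, RGS5 and the leading genes of clusters, were chosen after their values were seen. The members and lists were chosen with earlier results of these data known. Python 3.11.15, numpy 2.4.6, scipy 1.17.1, scanpy 1.11.5 and leidenalg 0.10.2 were used.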

Additional observations from a re-analysis of the deposited data

Results flagged for a closer look

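The stage ratio of 2 genes went opposite ways in different gates, with both counting intervals off 1. With 1 library a stage, these differences between gates were not tested. PODXL at 8 over 4 weeks was 1.27 in the vessel gate and 0.0644 (0.0438 to 0.0916) in the muscle or pericyte gate, whose 4-week cells included those with FOXC2 and LHX1. SYNPO was 1.46 (1.02 to 2.08) in the muscle or pericyte gate, 0.578 in stroma and 0.675 in vessels. In the clusters with RGS5 and ACTA2 among their leading genes SYNPO was lower at 8 weeks. It stood at 26.7 CPM (17.6 to 38.8) in cluster 26 of week 4 and 9.16 CPM (6.58 to 12.4) in cluster 14 of week 8. With cells of several gates kept, PODXL in vessels turned to a log2 ratio of -0.30 and SYNPO in the muscle or pericyte gate to -0.08.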

How the results depend on the processing

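Each stage is 1 library, so no replicate could be left out and no spread between animals was measured. No paired analysis was possible because each group has 1 library. In the podocyte gate, 6 of 6 genes were at least 2-fold higher under each alternative tried, with a median log2 ratio of 5.08 or more. The gate held 98 cells when taken as a Leiden cluster, 82 with cells of several gates kept and 67 with these and a stricter gate, an alternative added after seeing the data. The share of podocyte cells with 4 or more members detected after thinning to 1000 UMIs was then 32.6%, 28.75% and 33.3%. Thinning to 3000 UMIs, which leaves out the cells with fewer, gave 96.3%, and no thinning gave 82.5%, so the first value covers fewer and deeper cells. With at least 100 UMIs required, 1 gene differed between stages in vessels, 0 in stroma and 0 in the Sertoli-like gate, because fewer genes were compared. With cells of several gates kept, 4 genes differed in stroma; the cause was not tested. Of 224 stage ratios of single genes under the alternatives, 215 kept their side of 2-fold, 4 fell inside it and 5 passed it.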
